A study of Homo sapiens with 12 samples.

Results

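The genes described here are the protein-coding genes whose GENCODE symbols start with PSMA, PSMB, PSMC, PSMD, PSME, PSMF or PSMG, the naming series of the proteasome. The rule found 50 genes, of which 48 had values among the 33735 genes with a row in the tables. PSMA8 and PSMB8 had no row and are not analysed here. Of the 50, 31 are the constitutive subunits of the core particle and the regulatory particle, and the others are alternative subunits, activators, an inhibitor and assembly chaperones. PSMC3IP and PSME3IP1 carry the prefix but are not subunits, and were kept because the rule names them.

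The proteasome degrades proteins that carry chains of ubiquitin. Its 20S core is a barrel of outer alpha rings and inner beta rings, in which the beta subunits PSMB5, PSMB6 and PSMB7 cut the protein, while the 19S particle caps the barrel, binds ubiquitin through its base and lid, unfolds the substrate with its ring of ATPases (PSMC genes) and removes the ubiquitin. Interferon induces the alternative catalytic subunits PSMB8, PSMB9 and PSMB10, which replace the constitutive ones in the immunoproteasome, and the PSME1 and PSME2 activator, and a shortage of proteasome activity induces the constitutive genes through the transcription factor NRF1 (NFE2L1), which binds antioxidant response elements.

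LAST-seq, a single-cell method that counts 3′ ends after amplifying captured molecules by transcription with T7 polymerase, was compared with CEL-seq2 and SMART-seq V4 in HEK293T, a human embryonic kidney line, and was used in eHAP1, a haploid human line. LAST-seq was given for 2 libraries of 10 HEK293T cells, with the A60 spike-in mix in replicate 1 and the ERCC mix in replicate 2, and for 1 library each of 15 pg total RNA and of cell lysate. CEL-seq2 was given for 2 libraries of 10 HEK293T cells and 1 of lysate, and SMART-seq V4 for 6 HEK293T cells. HEK293T cells were grown in DMEM with serum and sorted live. eHAP1 cells were grown in IMDM from haploid subclones kept with 10-Deacetylbaccatin-III, sorted live as haploid cells in G1 phase, and given as 73 and 75 wild-type (WT) cells and 77 and 76 SCC4 knockout (KO) cells, in 2 batches per genotype. SCC4, gene symbol MAU2, is a subunit of the cohesin loader, and the knockout was made with Cas9 in a line grown from a single cell, so each genotype was 1 line. UMIs (unique molecular identifiers) count captured molecules, and levels are given as UMIs per 1000000 UMIs of a library (CPM), with no division by length, because a UMI marks 1 transcript end.

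HEK293T cells held 82596 to 190557 UMIs in LAST-seq and 80558 to 195438 in CEL-seq2, and eHAP1 cells 18022 to 926415. MAU2 was counted with 326 and 507 UMIs in the WT batches and with 59 and 169 in the KO batches, a fall of 1.82 ± 0.50 (SE) on the log2 scale (edgeR, adjusted p = 0.0402 with the batches of a genotype summed). Because 3′ ends were counted and the edited site was not used here, this level does not show the edit itself. The HEK293T marker NEFL was at 42 and 15 UMIs in HEK293T LAST-seq cells and at 0 in both WT batches. It was also at 51 and 169 UMIs in the KO batches, so it did not set HEK293T apart from KO. NEFM was at 0 in HEK293T LAST-seq cells and in WT, but at 21 and 25 UMIs in LAST-seq of 15-pg RNA and lysate. PAX2 was at 0 and 2 in HEK293T LAST-seq cells and at 110 and 197 in eHAP1 WT. In cells, 2 of the 3 markers thus went against the label. The leukocyte markers PTPRC and LYZ were at 0 in both lines but for 1 UMI of each in a HEK293T library. The fibroblast marker COL1A1 was at 10.5 and 9.94 CPM in HEK293T cells, above the WT batches at 3.66 and 4.39 CPM, and its part in the comparison of the lines was not tested. Between 70 and 75 well barcodes were shared by each pair of eHAP1 batches, and no pair of wells held identical counts.

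The batches of an eHAP1 genotype were closer to each other than sampling allows among well-covered genes. Over genes with 5000 or more UMIs, the squared difference between batches had a median of 0.105 times the sampling noise in WT and 0.0632 times in KO, against 30.2 times between the HEK293T LAST-seq libraries. Over genes with 50 to 200 UMIs it was 6.48 times the noise in WT. The batches of a genotype were therefore counted as 1 sample in each call below, and the counts with each batch as a sample are given beside it. How the batches came to agree was not tested.

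The 48 genes together took 0.719% and 0.715% of all UMIs in the HEK293T LAST-seq libraries, 0.655% and 0.663% in the WT batches, and 0.634% and 0.627% in the KO batches. In CEL-seq2 cells the share was 0.578% and 0.612%, below both LAST-seq libraries of the same line. With the UMIs of nuclear protein-coding genes as the denominator, the mean shares were 1.02% in HEK293T LAST-seq, 0.823% in CEL-seq2, 1.03% in WT and 0.985% in KO, and the HEK293T value no longer stood above WT. Per cell, the share ranged from 0.561% to 0.725% with a median of 0.654% in WT batch 1, with an SD of 0.0379 percentage points where counting alone gives 0.0272. In the wells of 15-pg RNA the SD was 0.0240 percentage points, beside 0.0241 from counting, so the spread of the assay was no larger than counting. The 10 HEK293T cells of each LAST-seq library spread by 0.0401 and 0.0418 percentage points, where counting gives 0.0232 and 0.0221.

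The counted levels of the subunits of a complex that holds equal copies of each were far from equal. PSMA4, an alpha subunit, was the highest member in HEK293T LAST-seq cells at 735 ± 23.4 CPM (SD, n = 2 libraries), with 719 and 752 CPM in the libraries and 46 to 149 UMIs in the cells of replicate 1. PSMB7, the beta subunit with trypsin-like activity, followed at 580.4 and 523 CPM, and PSMB2, a non-catalytic beta subunit, at 470.2 and 472 CPM. The ranges of PSMB7 and PSMB2 did not overlap, while PSMB1, next in order at 444 and 483 CPM, overlapped PSMB2. PSMA4 did not lead in each HEK293T library, as PSMA7 came first in CEL-seq2 cells, at 424 ± 37.9 CPM beside 332 ± 13.4 CPM for PSMA4 (SD, n = 2), and PSMB1 was above PSMA4 in 15-pg RNA (669 against 447 CPM) and in LAST-seq lysate (638 against 499 CPM). In eHAP1 WT the order was PSMB1, a non-catalytic beta subunit, at 818 and 837 CPM, then PSMA4 at 750.0 and 768 CPM and the alpha subunit PSMA7 at 589 and 608 CPM, with no overlap between neighbours. The plot of levels by library shows that most members lie between 30 and 500 CPM, and that in HEK293T LAST-seq PSMA6, PSMC1 and PSMD7 were the lowest of the alpha subunits, the ATPases and the lid. In CEL-seq2, PSMD7 was at 134 and 168 CPM, above the lid medians of 125 and 140.5 CPM.

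**Figure D1:**
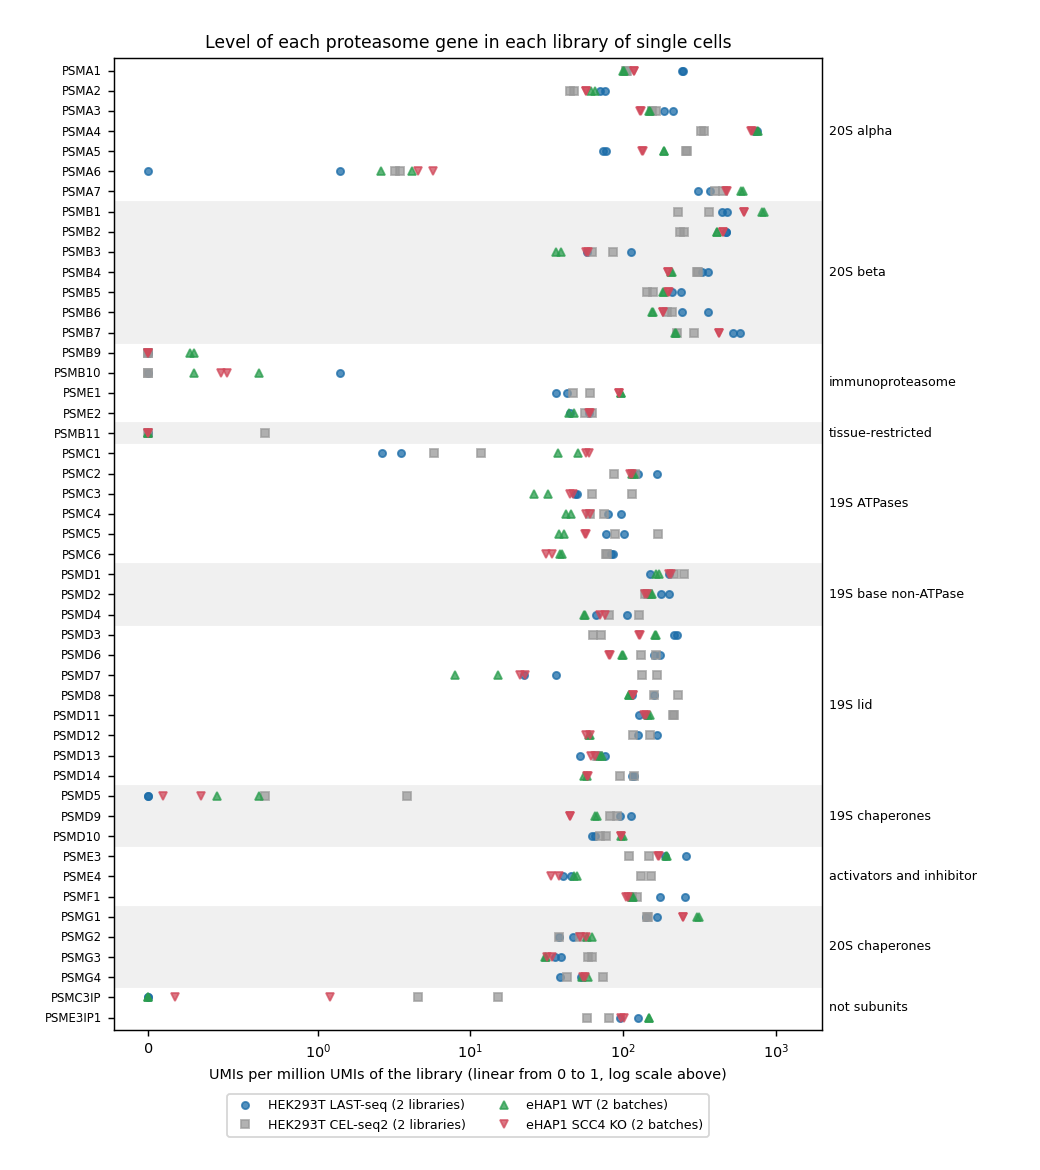
Level of each member in each library of single cells, in CPM on an axis that is linear from 0 to 1 and logarithmic above. Each point is 1 library or batch of HEK293T LAST-seq, HEK293T CEL-seq2, eHAP1 WT or eHAP1 SCC4 KO, with genes grouped by subcomplex. PSMA4 reaches 752 CPM in HEK293T LAST-seq, and PSMB9, PSMB11, PSMC3IP and PSMD5 lie at 0 there.

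Among the 7 alpha subunits, the CV over subunits was 1.01 and 1.07 in the HEK293T LAST-seq libraries and 1.10 in both WT batches, from PSMA6 at 1.40 and 0.00 CPM to PSMA4. Among the 7 beta subunits it was 0.467 and 0.474 in HEK293T, 0.886 and 0.898 in WT, and 0.649 and 0.652 in KO, from PSMB3, at 112 and 58.3 CPM in HEK293T, to PSMB7 or PSMB1. The 6 ATPases had a CV of 0.581 and 0.679 in HEK293T and 0.622 and 0.607 in WT. Without the lowest and the highest subunit, the ATPases of WT had a CV of 0.0898 and 0.135, so PSMC4, PSMC5, PSMC6 and PSMC1 were near each other, with 37.4 to 50.9 CPM over the batches. The 8 lid subunits had a CV of 0.484 and 0.471 in HEK293T, from PSMD7 at 22.5 and 36.4 CPM to PSMD3 at 226 and 217 CPM. The low ends PSMA6, PSMC1 and PSMD7 are uncertain, as their 3′ ends are shared with or covered by other genes, as given below. In HEK293T without the lowest and the highest subunit, the CV was 0.65 and 0.58 for the alpha subunits. It was then 0.28 and 0.26 for the ATPases and 0.23 and 0.34 for the lid.

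The order of the 31 constitutive subunits was mostly kept between libraries made by LAST-seq and less so between assays. Spearman's rho over these 31 genes, given as a description because genes are not independent replicates, was 0.923 between HEK293T cells and 15-pg RNA, 0.909 between cells and lysate, 0.844 between HEK293T and WT eHAP1, and 0.967 between WT and KO. It was 0.706 between LAST-seq and CEL-seq2 in HEK293T cells. Against SMART-seq reads divided by transcript length, the values were 0.523 with LAST-seq and 0.573 with CEL-seq2.

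The 3′ ends of some members, where UMIs are counted, are not unique. Of the 50-base words in the last 500 bases of the transcript, 100% for PSMA2, 95.8% for PSMA6 and 89.4% for PSMB10 also occur in another gene, as do 37.7% for PSMA1 and 26.2% for PSME2. Exons of another gene on the same strand cover 100% of these bases for PSMA2 and PSMB10, 96.2% for PSMA6 and 43.8% for PSMA1. The last 500 bases of PSMC1, PSMC3IP and PSMD7 lie wholly within a gene on the opposite strand. PSMA6, at 2 and 0 UMIs in HEK293T LAST-seq cells, had 102 reads in SMART-seq. PSMC1, at 5 and 4 UMIs, had 619 reads in SMART-seq, and its pseudogenes PSMC1P1 and PSMC1P9 had 102 and 78 UMIs in WT batch 1, where PSMC1 had 276. The levels of these genes are uncertain for this reason, and the part of these overlaps in their levels was not tested.

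Of the catalytic subunits of the immunoproteasome, PSMB9 and PSMB10 were near 0 in every UMI library, and PSMB8 had no row. PSMB9 (GRCh38 chr6:32844136-32859851, plus strand), which replaces PSMB6, was at 0 UMIs in both HEK293T LAST-seq libraries, beside 348 and 541 UMIs of PSMB6, which allows a share of the pair of up to 0.862% and 0.555% by a limit of 3 counts. In WT it had 2 and 3 UMIs, or 0.174% (95% Clopper-Pearson interval 0.0211% to 0.627%) and 0.155% (0.0321% to 0.454%) of the pair, and in KO it was at 0 beside 1172 and 2122 UMIs of PSMB6. These shares are too small to order the genotypes at this depth.

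PSMB10 (GRCh38 chr16:67934506-67936864, minus strand), which replaces PSMB7, had 2 and 0 UMIs in HEK293T beside 827 and 789 UMIs of PSMB7. In WT it had 2 and 8 UMIs, or 0.123% (0.0149% to 0.444%) and 0.290% (0.125% to 0.571%) of the pair, and in KO 3 and 5 UMIs, or 0.109% and 0.0999%. SMART-seq gave PSMB10 31 reads and PSMB9 4 reads in 6 cells. PSMB5, whose partner PSMB8 had no row, was at 240.0 and 211 CPM in HEK293T and at 182 and 185 CPM in WT. Intervals and limits cover counting error only, and the counts of PSMB10 are uncertain because most of its 3′ end is shared with another gene.

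The interferon-induced activator genes were expressed in both lines, while the UMIs of PSMB9 and PSMB10 were near 0. PSME2 was at 44.9 and 59.6 CPM in HEK293T and at 47.5 and 44.5 CPM in WT, which overlap. PSME1 was at 36.5 and 43.1 CPM in HEK293T and at 96.5 and 97.6 CPM in WT, which do not. Other genes of antigen processing that lie beside PSMB9 on chromosome 6 were also near 0, with TAP1 at 0 UMIs in each LAST-seq and CEL-seq2 library. Of the 183 protein-coding genes in the major histocompatibility region of that chromosome, 17.5% had at least 100 UMIs over the cell libraries, against 53.7% of the other 868, a difference whose part in the PSMB9 count was not tested. B2M, which interferon also induces and which lies on chromosome 15, had 667 and 867 UMIs in HEK293T.

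Of the other members at the low end, PSMB11, the thymus-specific beta subunit, was at 0 in all LAST-seq cell libraries and had 1 UMI in CEL-seq2. PSMD5, a chaperone of the ATPase ring, was at 0 in HEK293T LAST-seq cells and at 3 and 8 UMIs in WT. PSMC3IP, a recombination factor, was at 0 in HEK293T and WT and at 1 and 14 UMIs in KO, and had 307 reads in SMART-seq.

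Promoter sequences, from 250 bases before to 50 after the start in RefSeq on GRCh38.p14, matched 44 of the 50 genes. Both strands were searched for the antioxidant response element core TGACNNNGC, the interferon regulatory factor element (TTTC, 2 bases of any kind, then TTTC) and the interferon-gamma activation site TTCNNNGAA. The first was in 29.5% of the 44 promoters and in 13.6% of all 27305 promoters, the second in 13.6% and 3.65%, and the third in 11.4% and 7.88%. Matches of different motifs overlapped in 0.051% of all promoters. The 6 members with the interferon regulatory factor element were PSMA4, PSMB4, PSMB10, PSME1, PSME2 and PSMG4. The match of PSME1 did not lie wholly before the start and is not shown. Stretches around the other matches are shown, on the strand of the gene, with the match in capitals (for this element, its reverse complement).
PSMB10 (chr16:67936852-67936881, minus): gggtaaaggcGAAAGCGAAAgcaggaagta
PSME2 (chr14:24146619-24146648, minus): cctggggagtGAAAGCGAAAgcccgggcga
PSMG4 (chr6:3258904-3258933, plus): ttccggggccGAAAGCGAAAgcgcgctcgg
PSMB4 (chr1:151399495-151399524, plus): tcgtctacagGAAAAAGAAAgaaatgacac
PSMA4 (chr15:78540155-78540184, plus): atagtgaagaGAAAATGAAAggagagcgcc
PSMB10, PSME2 and PSMG4 held the same letters over the match. In HEK293T, PSMB10 was at 1.40 and 0.00 CPM, PSME2 at 44.9 and 59.6 CPM and PSMG4, a chaperone of the core, at 52.6 and 38.4 CPM. The level of PSMB10 is uncertain, as 89.4% of the words of its 3′ end occur in another gene, against 26.2% for PSME2 and 0.0% for PSMG4. PSMA4 and PSMB4, at 719 and 329.9 CPM in replicate 1, are constitutive subunits with a match of other letters.

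The antioxidant response element core was in 13 members, of which 5 were among the 26 constitutive subunits with a promoter sequence (19.2%). Matches are shown for a lid subunit that is high in LAST-seq, for the alternative catalytic subunit and for a chaperone of the core that was lower in HEK293T. The capitals in PSMB9 are the reverse complement of the motif, and those in PSMD3 and PSMG1 the motif itself.
PSMD3 (chr17:39980760-39980788, plus): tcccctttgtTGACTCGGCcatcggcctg
PSMB9 (chr6:32854034-32854062, plus): gggcggggctGCCTCGTCActtgtctcgg
PSMG1 (chr21:39183616-39183644, minus): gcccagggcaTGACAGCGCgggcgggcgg
PSMD3, the lid subunit, and PSMB9 both held the motif, with 226 and 217 CPM for PSMD3 and 0 UMIs for PSMB9 in HEK293T. How a match relates to level over the members was not tested. A match is a description of letters and not of binding.

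In HEK293T against eHAP1 WT, both in LAST-seq, PSMA1, PSMB7 and PSMD12 were higher in HEK293T and PSMC1, PSMA5, PSME1, PSMG1, PSMB1 and PSMA7 were lower (edgeR quasi-likelihood test, Benjamini-Hochberg adjusted over all genes tested). These were 3 higher and 6 lower of the 42 members tested, or 9 in all, where 19% of all genes were called (7.45% higher and 11.6% lower). The median log2 fold change was 0.04 over the members and 0.02 over all genes. WT was 1 sample in this fit, so the spread came from the HEK293T libraries and WT was assumed to vary like them. With each batch as a sample, 11 were higher and 9 lower of 43, with 33.6% of all genes called (15% higher and 18.7% lower). The 11 members called only there had log2 fold changes from 0.52 for PSMB4 to 0.97 for PSMC5 and from -0.63 for PSME3IP1 to -0.83 for PSMD10. DESeq2 gave 12 higher and 8 lower of 43 members, beside 1749 higher and 1966 lower of all 13105 genes. The lines were prepared in libraries of different pool size, culture medium and sort gate, so line and library cannot be told apart.

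Of the core particle, PSMB7 (GRCh38 chr9:124353465-124415444, minus strand) was at 580.4 and 523 CPM in HEK293T and at 219.9 and 223.5 CPM in WT. The groups did not overlap, and the log2 fold change was 1.07 ± 0.27 (SE, adjusted p = 0.00239). PSMA1, an alpha subunit, was at 248 and 244 CPM against 101 and 99.6 CPM, higher by 1.05 ± 0.30 (adjusted p = 0.00933). PSMB1 went the other way, with 444 and 483 CPM against 818 and 837 CPM, and fell by 1.09 ± 0.23 on the log2 scale (adjusted p = 4.07e-04). Both alpha subunits below were also lower in HEK293T. PSMA5 was at 74.4 and 76.8 CPM against 184 and 186 CPM, and fell by 1.54 ± 0.33 (adjusted p = 3.34e-04). PSMA7 was at 369.9 and 312 CPM against 589 and 608 CPM, and fell by 1.06 ± 0.25 (adjusted p = 0.00109). Members of the same ring thus moved in opposite directions, 1 up and 2 down of the 6 alpha subunits tested and 1 up and 1 down of the 7 beta subunits.

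Of the regulatory particle, PSMC1 (GRCh38 chr14:90256527-90275429, plus strand), an ATPase, was at 3.51 and 2.65 CPM in HEK293T against 37.4 and 50.9 CPM in WT, and fell by 4.14 ± 0.65 on the log2 scale (adjusted p = 2.61e-06). The other 5 ATPases had log2 fold changes above 0, up to 0.94 ± 0.41 for PSMC5 (adjusted p = 0.111), and none of them passed the test. PSMC1 is also the ATPase whose 3′ end lies within a gene on the opposite strand, and 0.0% of the words of that end occur in another gene. Of its pseudogenes, PSMC1P1 was at 2.81 and 0.662 CPM in HEK293T and at 13.8 and 20.1 CPM in WT, and PSMC1P9 at 4.91 and 6.62 CPM against 10.6 and 18.0 CPM. PSMC1P4 did not move that way, at 4.91 and 5.30 CPM against 4.34 and 4.15 CPM. PSMD12, a lid subunit, was at 126 and 167 CPM against 60.5 and 59.5 CPM, higher by 1.03 ± 0.36 (adjusted p = 0.0334). PSMD7 had the largest rise, 1.21 ± 0.60, which did not pass (adjusted p = 0.168).

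Of the activators and chaperones, PSME1 fell by 1.54 ± 0.40 on the log2 scale (adjusted p = 0.00394) from the levels given above. PSMG1, a chaperone of the alpha ring, was at 140.4 and 167 CPM against 305 and 314 CPM, and fell by 1.27 ± 0.27 (adjusted p = 4.06e-04). PSMG2, its partner, had a log2 fold change of -0.75 ± 0.43 (adjusted p = 0.246). No member of the ATPase chaperones passed, with PSMD10 at -0.87 ± 0.38 (adjusted p = 0.103).

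**Figure D2:**
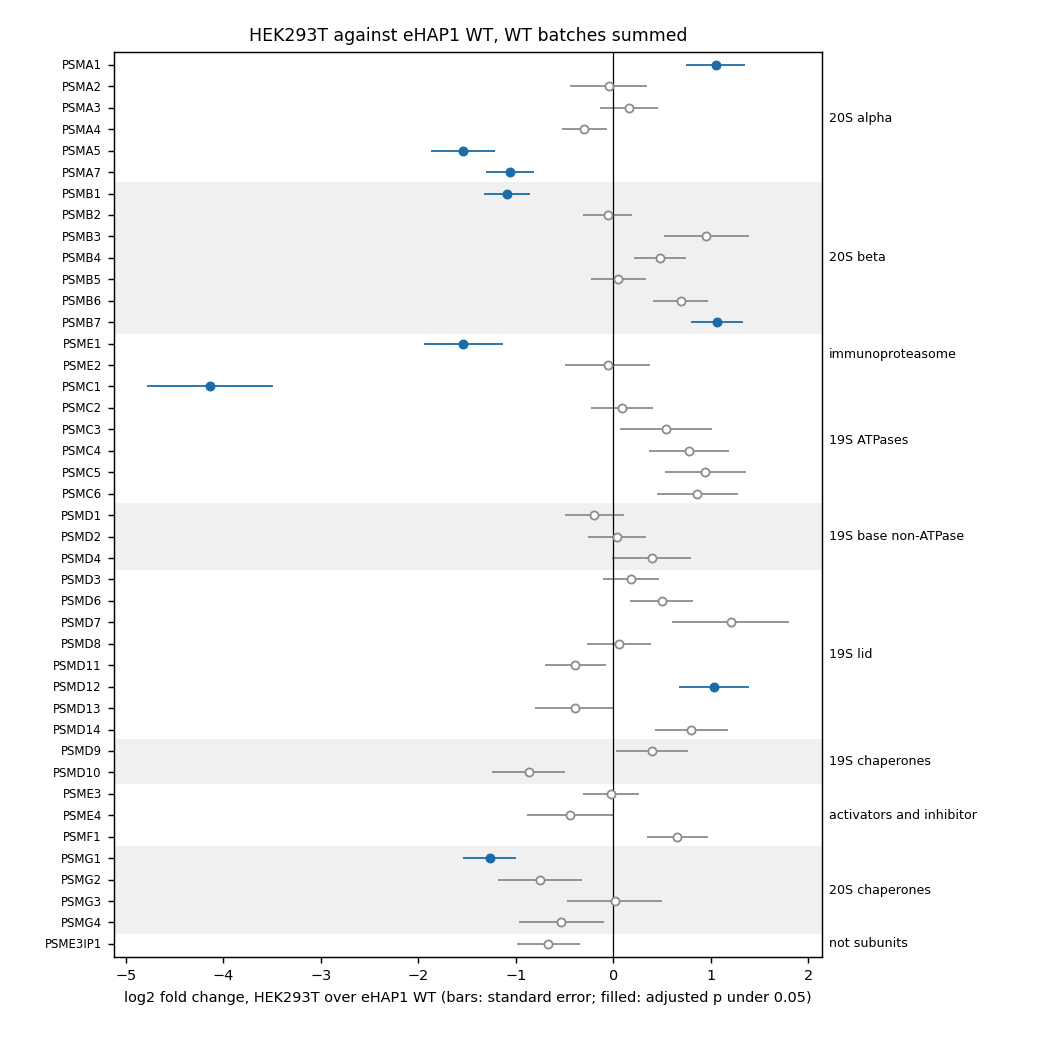
Log2 fold change of HEK293T over eHAP1 WT for each member tested, with the batches of WT summed to 1 sample. Points are estimates from edgeR, bars are standard errors, and filled points passed an adjusted p of 0.05. PSMC1 lies lowest at -4.14 and PSMB7, PSMA1 and PSMD12 are filled on the right.

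Scaling to total UMIs moved the median of all genes from 0.02 to 0.26 and the share of calls that were higher from 39.2% to 55.2%. Under that scaling 9 members were higher and 6 lower, where 21.1% of all genes were called (11.7% higher and 9.46% lower), so the count of higher members depended on the scaling. With each batch as a sample, that scaling gave 16 higher and 7 lower of 43 members, beside 2448 higher and 1862 lower of all 13105 genes tested. Leaving out either WT batch, or either HEK293T replicate with each WT batch as a sample, left 1 library in a group. The median log2 fold change in these fits was from 0.01 to 0.11 over the members and from -0.22 to 0.01 over all genes.

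In SCC4 KO against WT eHAP1, no member passed the test when the batches of a genotype were summed (0 of 44, edgeR, where 0.672% of all genes were called, 0.285% higher and 0.386% lower). With scaling to total UMIs it was again 0 of 44, where 0.386% of all genes were called (0.19% higher and 0.196% lower). With the batches summed and without that scaling, the log2 fold changes of the members ran from -0.65 for PSME3IP1 to 0.98 for PSMD7. The spread in this fit came from the HEK293T libraries, so each genotype was assumed to vary like them. With each batch as a sample, 9 members were higher and 16 lower of 43, where 29.4% of all genes were called (13.3% higher and 16.2% lower). Their log2 fold changes ran from 0.20 for PSMD1 to 0.89 for PSMD7 and from -0.19 for PSMF1 to -0.64 for PSME3IP1. DESeq2 gave 9 higher and 13 lower of 43 members, beside 1951 higher and 2342 lower of all 15071 genes. These calls rest on batches that were closer to each other than sampling allows. The median log2 fold change was -0.12 over the members and 0.00 over all genes. Of the markers of cycling cells, MKI67 was at 153 and 153 CPM in WT and at 152 and 151 CPM in KO, CDK1 at 106 and 106 CPM against 46.2 and 48.3 CPM, TOP2A at 94.4 and 90.6 CPM against 77.9 and 71.9 CPM, and CCNB1 at 104 and 103 CPM against 129 and 127 CPM. The fibroblast marker COL1A1 was at 3.66 and 4.39 CPM in WT and at 11.97 and 16.3 CPM in KO. NEFL was at 0 UMIs in both WT batches and at 7.93 and 14.5 CPM in KO. The part of these genes in the members' values was not tested.

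PSMB7, the beta subunit, was at 219.9 and 223.5 CPM in WT and at 428 and 428 CPM in KO. Both KO batches lay above both WT batches, with a ratio of means of 1.93, and it was the only member past 1.5-fold in both batches. Its log2 fold change was 0.88 ± 0.30 (adjusted p = 0.25 with the batches summed). The other catalytic subunits moved less, with PSMB6 at 156 and 157 CPM against 182 and 182 CPM and PSMB5 at 182 and 185 CPM against 200.5 and 198 CPM. PSMB1 was at 818 and 837 CPM in WT and at 623 and 623 CPM in KO. PSMB3, the lowest beta subunit, was at 39.3 and 36.2 CPM against 58.7 and 57.4 CPM. The CV over the beta subunits was 0.649 and 0.652 in KO against 0.886 and 0.898 in WT, but without the lowest and the highest subunit the order turned, with 0.464 and 0.467 in KO against 0.430 and 0.431 in WT. Neither difference was tested.

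Of the 43 members with more than 3 UMIs in each batch, 41 had the same sign in both batches, 18 higher and 23 lower in KO. Batches of the same number were set against each other. The batches of a genotype were closer than sampling allows, so equal signs and groups that do not overlap are not replication here. The share of all genes with equal signs was not computed. The log2 ratios of the batches differed by a median of 0.05 and at most by 1.06, which was PSMD7, the lid subunit, with 15.2 and 7.97 CPM in WT and 21.0 and 22.9 CPM in KO. The lowest ratios were those of PSME3IP1, PSMD9 and PSMA5. PSME3IP1 was at 147 and 148 CPM in WT and at 101 and 97.1 CPM in KO, a log2 fold change of -0.65 ± 0.38 (adjusted p = 0.849). PSMD9, a chaperone of the ATPase ring, was at 65.8 and 67.2 CPM against 45.2 and 45.2 CPM, and PSMA5 at 184 and 186 CPM against 135 and 133 CPM. In none of these did the batches of the genotypes overlap, and none passed with the batches summed.

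**Figure D3:**
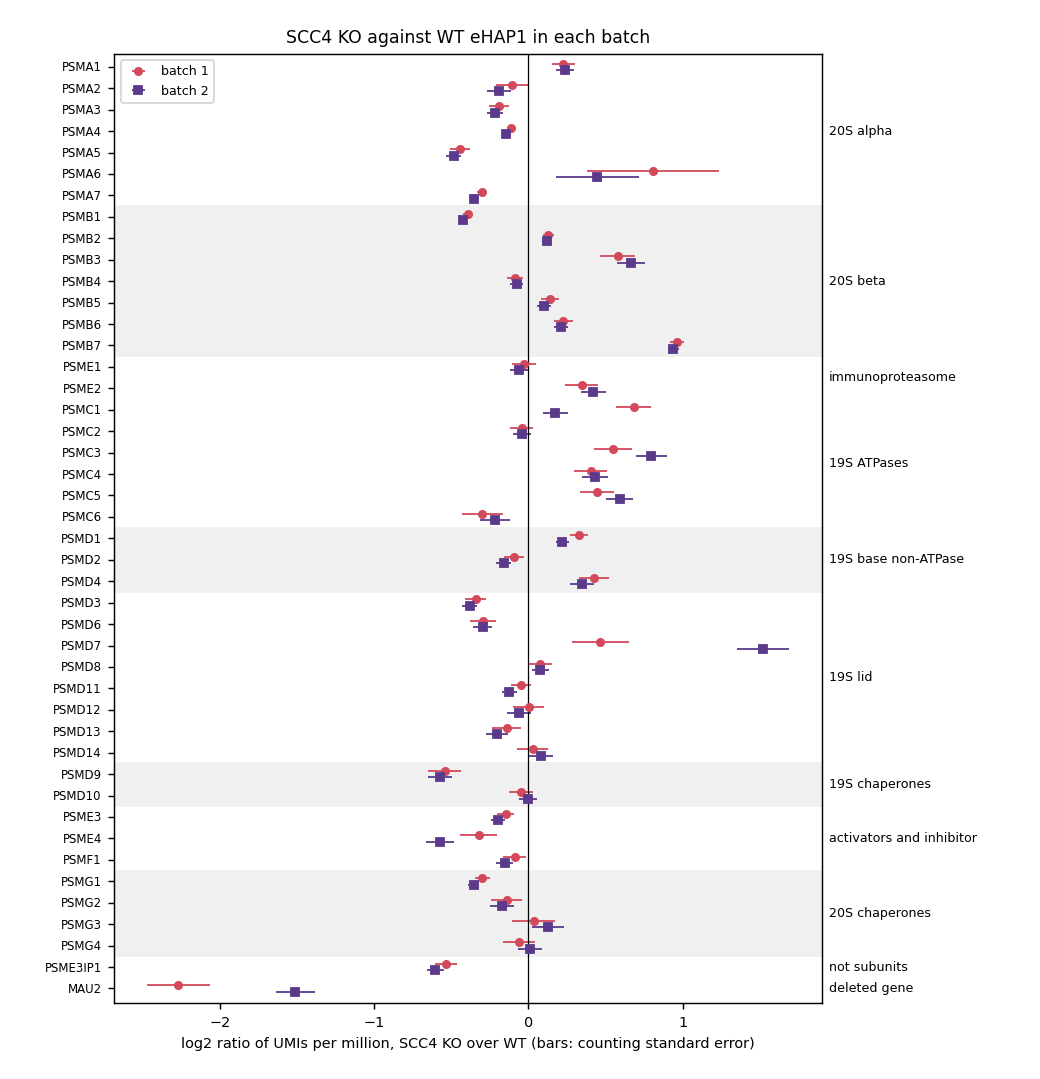
Log2 ratio of SCC4 KO over WT (horizontal axis) for each member and for MAU2, with 1 row per gene and separate points for batch 1 and batch 2. Members shown have more than 3 UMIs in each batch, and bars are counting standard errors. PSMB7 lies at 0.96 and 0.94, past 1.5-fold in both batches, and the points of PSMD7 lie far apart, at 0.47 and 1.52.

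The calls by subcomplex were all lost with the batches summed (0 of 44), and 29.4% of all genes were called with each batch as a sample (13.3% higher and 16.2% lower). That fit called 3 of 7 alpha subunits lower (PSMA3, PSMA5 and PSMA7), and of the ATPases 3 higher (PSMC3, PSMC4 and PSMC5) and 1 lower (PSMC6). It called PSMB3 and PSMB7 higher and PSMB1 lower, PSMD1 and PSMD4 of the base higher and PSMD2 lower, and PSMD7 of the lid higher and PSMD3, PSMD6 and PSMD13 lower. All 3 of PSME3, PSME4 and PSMF1 were lower, as were PSMD9, PSMG1, PSMG2 and PSME3IP1, while PSME2 was higher. The ATPase PSMC3, at 32.3 and 25.9 CPM in WT and at 47.2 and 45.0 CPM in KO, had the largest change of its ring, 0.61 ± 0.10. Its value with the batches summed was 0.62 ± 0.53 (adjusted p = 1). The deviations of batch 1 from the genotype means had a correlation of 0.07 between WT and KO over 6256 genes. With the batches of a genotype this close, that value cannot tell whether the batch numbers pair the genotypes.

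LAST-seq and CEL-seq2 were compared in HEK293T cells to see whether the level of a subunit depends on the assay. LAST-seq gave higher levels of 11 and lower levels of 3 of the 41 members tested (edgeR, adjusted over all genes tested), where 26.2% of all genes were called, 11.3% higher and 14.8% lower. Those higher were PSMA1, PSMA2, PSMA4, PSMB2, PSMB5, PSMB6, PSMB7, PSMD3, PSME3, PSMF1 and PSME3IP1, and those lower were PSMA5, PSMD7 and PSME4. By subcomplex, 3 of 6 alpha and 4 of 7 beta subunits tested were higher, and none of the 5 ATPases tested passed. The median log2 fold change was 0.45 over the members and -0.05 over all genes.

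PSMD3, a lid subunit, was at 226 and 217 CPM in LAST-seq and at 71.4 and 63.2 CPM in CEL-seq2, higher by 2.04 ± 0.28 (SE) on the log2 scale (adjusted p = 0.00171). PSMD7, another lid subunit, was at 22.5 and 36.4 CPM against 134 and 168 CPM, and fell by 2.05 ± 0.36 (adjusted p = 0.00441). These subunits of 1 subcomplex, equal in copy number, were thus far apart in LAST-seq and in the reverse order in CEL-seq2. Lysate gave the same directions, with PSMD3 at 127 CPM in LAST-seq against 85.1 CPM in CEL-seq2 and PSMD7 at 11.3 CPM against 139.5 CPM. PSMD7 had 1299 reads in SMART-seq. Its 3′ end lies within a gene on the opposite strand, and the part of this in its level was not tested.

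PSMA4 was at 719 and 752 CPM in LAST-seq and at 341 and 322 CPM in CEL-seq2, higher by 1.47 ± 0.28 (adjusted p = 0.00621). PSMA1 was at 248 and 244 CPM against 106 and 104 CPM, higher by 1.54 ± 0.28 (adjusted p = 0.0048), and PSMB7 was at 580.4 and 523 CPM against 225 and 291 CPM, higher by 1.40 ± 0.31 (adjusted p = 0.011). In each of them the LAST-seq libraries lay above both CEL-seq2 libraries. PSMA5 was at 74.4 and 76.8 CPM against 264 and 259.6 CPM, and fell by 1.48 ± 0.28 (adjusted p = 0.0057). PSME4, the large activator of the nucleus, was at 45.6 and 40.4 CPM against 152 and 131 CPM, and fell by 1.39 ± 0.30 (adjusted p = 0.00946). The other 7 members higher in LAST-seq had log2 fold changes from 0.90 for PSMB6 to 1.26 for PSMB2.

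**Figure D4:**
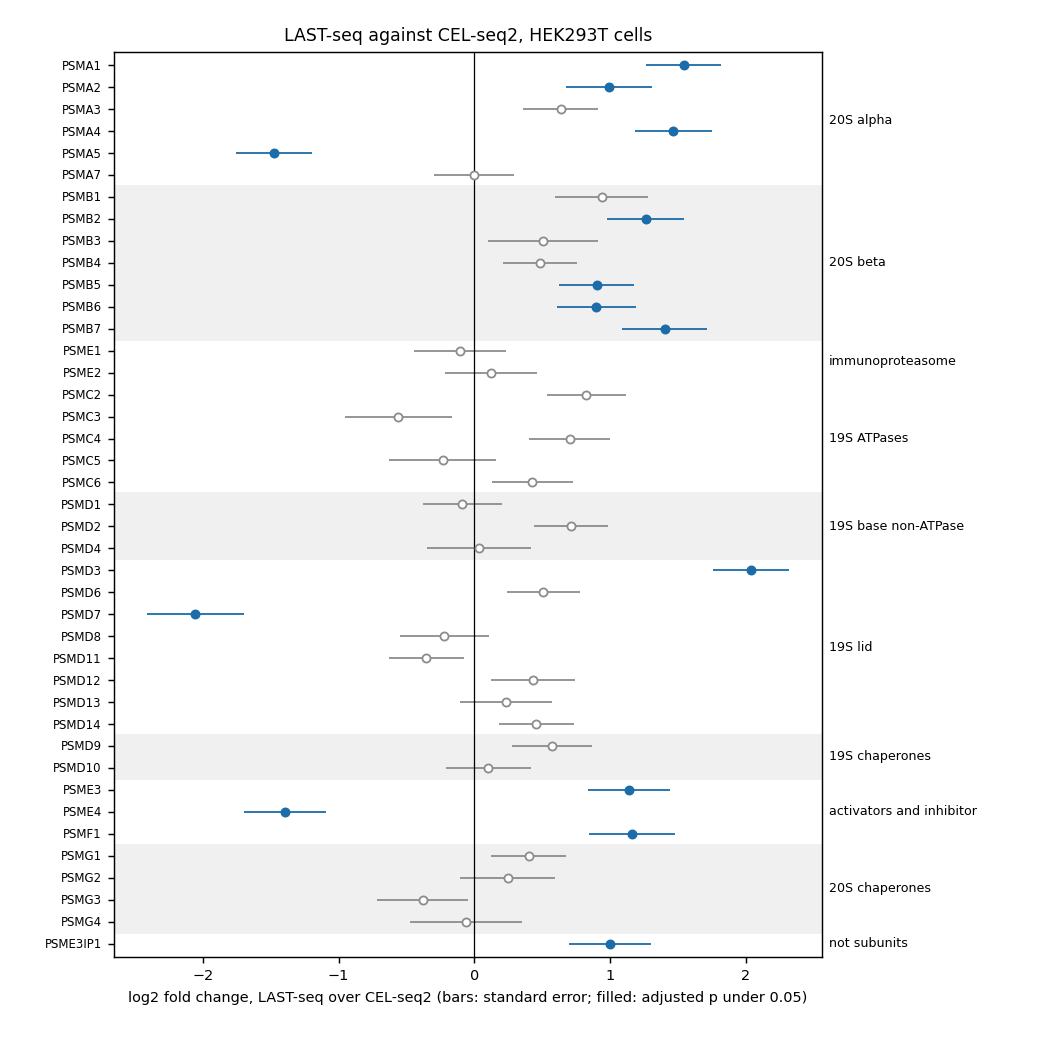
Log2 fold change of LAST-seq over CEL-seq2 in HEK293T cells for each member tested. Points are estimates from edgeR, bars are standard errors, and filled points passed an adjusted p of 0.05. PSMD3 and PSMD7 lie at the opposite ends, at 2.04 and -2.05.

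Scaling to total UMIs moved the median of all genes from -0.05 to -0.41 and the share of calls that were higher from 43.3% to 24.5%. Under that scaling 5 members were higher and 3 lower of 41, beside 740 higher and 2286 lower of all 11271 genes tested. Leaving out HEK293T LAST-seq replicate 1 or replicate 2 left 1 library in that group, so calls are not counted there. The median log2 fold change over the members was 0.44 without replicate 1 and 0.50 without replicate 2, against -0.17 over all genes in both fits. PSMD3 was higher in both of these fits, at 1.99 and 2.14.

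Cell-to-cell variation was described by the overdispersion, which is the variance beyond counting over the squared mean, after scaling to the total of the cell, so that 0 stands for counting alone. In WT it was computed for the 42 members that reached a mean of 1 UMI per cell, within each batch and then averaged. The median over the members was 0.0144, beside 0.0125 for genes in the same ranges of mean UMIs, and 18 of the 42 lay below the median of their range. With cells thinned to 20000 UMIs the order turned, with 0.0074 beside 0.0119 and 17 of 31 members below. In KO the median was 0.0163 beside 0.0180, with 21 of 42 below. In HEK293T LAST-seq it was 0.0059 beside 0.0029 and in CEL-seq2 0.0472 beside 0.0831, with 31 of 41 below. In 15-pg RNA, where no cells differ, it was -0.0065, and in LAST-seq lysate 0.0081.

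The members with the highest overdispersion in WT were PSMD7 at 0.339, PSMC1 at 0.194 and PSMG3, a chaperone of the core, at 0.0942. Their batches lay far apart, with 0.0001 and 0.677 for PSMD7, 0.352 and 0.0368 for PSMC1 and 0.163 and 0.0257 for PSMG3, and their means were 1.42, 6.06 and 4.13 UMIs per cell. In KO, PSMD7 and PSMC1 again came first, at 0.191 and 0.134. Their counts are uncertain, as their 3′ ends lie within a gene on the opposite strand, and the part of this was not tested. The lowest members in WT were PSMB3 at -0.0138, PSMA2 at -0.0133 and PSMB6 at -0.0076, so no variation beyond counting was detectable for them. PSMA4, with a mean of 108 UMIs per HEK293T cell, had an overdispersion of 0.0087 there and of -0.0101 in 15-pg RNA.

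The summed UMIs of the 31 constitutive subunits had an overdispersion of 0.0014 and 0.0032 in the WT batches and of 0.0024 and 0.0019 in the KO batches. A sum over many genes is lower than single genes by construction, and no sums over other genes were computed. The CV of the sum was 0.0618 and 0.0467 over WT cells. In 15-pg RNA the overdispersion of the sum was -0.0003.

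**Figure D5:**
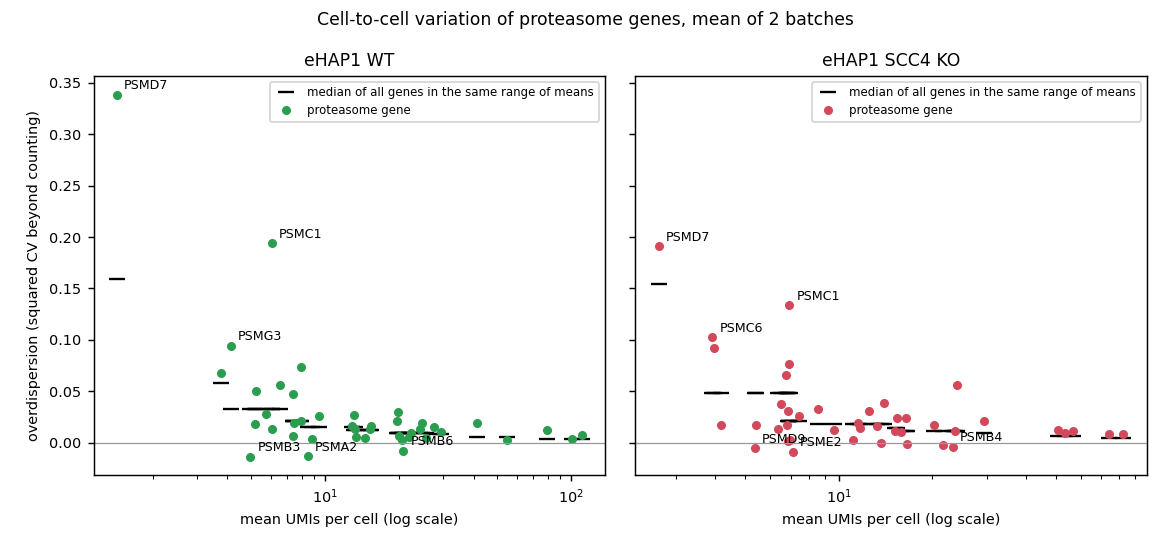
Overdispersion of each member (vertical axis, no unit) against its mean UMIs per cell (horizontal axis, log scale) in eHAP1 WT and SCC4 KO cells, as the mean of 2 batches. Dashes give the median of all genes in the same range of means. PSMD7 and PSMC1 lie highest in both panels, and most members with over 10 UMIs per cell lie near 0.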

How the data were processed

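The authors deposited counts as whole numbers, of UMIs for LAST-seq and CEL-seq2 and of reads for SMART-seq, with 1 column per well. They demultiplexed with bcl2fastq 2.20 (processing notes), aligned to GRCh38 and counted reads in exons with zUMIs, after subsampling the data of the assays to equal read depth. Whether the deposited eHAP1 counts preceded or followed the study's ComBat-seq batch correction is not given in the sources used here. Spike-ins were left out. Here, genes were named from GENCODE 44, which held 99.5% of the identifiers, and UMIs were summed over the wells of a library or batch, because cells are not replicates. SMART-seq reads were divided by transcript length. Nothing states that the libraries of a group came from separate cultures, so p-values measure the spread between libraries, which may be technical.

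Comparisons used edgeR 4.0.16 (quasi-likelihood, TMM, filterByExpr, Benjamini-Hochberg over all genes tested, threshold 0.05), tested on simulated data, with R 4.3.3 and Python 3.11.15. As designed, each eHAP1 batch was a sample. Summing the batches of a genotype was added after seeing the data, because they agreed more closely than sampling noise, and the fit then takes its spread from the HEK293T LAST-seq libraries. Alternatives were scaling to total UMIs, no filter, DESeq2 1.42.0, cells thinned to 10000 UMIs, 1 fit over all cell libraries, leaving out each library, the batch as a replicate block, and leaving out cells above 3 times the median UMIs of their batch. Overdispersion was compared with genes in the same range of means, with thinning to 20000 UMIs as an alternative.

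The named genes were MAU2, the catalytic pairs, in each comparison the members past the threshold and the 3 largest rises and falls among those tested, the 3 highest and lowest members of each line, the 3 most and least overdispersed in WT, members with 3 UMIs or fewer in all LAST-seq cell libraries, and of each pathway list the gene with the largest change. Some genes of these lists are not reported here. The members, gene lists and rule were chosen with earlier results of these data known. SMART-seq lysate libraries and read tables of LAST-seq and CEL-seq2 were not used here. Promoter sequences are from RefSeq (GRCh38.p14). PSMA7, PSMB1, PSMB6, PSMB7, PSMD4 and PSMG3 had no entry.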

Additional observations from a re-analysis of the deposited data

Results flagged for a closer look

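For PSME3IP1, the log2 ratio of LAST-seq to CEL-seq2 was -1.26 in lysate (counting SE 0.36) and 0.68 in cells, where both LAST-seq libraries lay above both CEL-seq2 libraries. For PSMB4, a non-catalytic beta subunit, it was -0.26 in lysate (counting SE 0.12) and 0.17 in cells. The direction in cells and in lysate was opposite in these members. Lysate had 1 library per assay, so these differences were not tested.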

How the results depend on the processing

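For HEK293T against WT, the fit with each batch as a sample called 11 members higher and 9 lower of 43. Over all 13105 genes tested, it called 1962 higher and 2445 lower. With cells thinned to 10000 UMIs, 5 members were higher and 9 lower of 41, beside 681 higher and 925 lower of 5751 genes. With the batches summed, the median log2 fold change was 0.04 over the members and 0.02 over all genes. These were 0.05 and 0.01 without cells above 3 times the median of their batch. Leaving out a library gave 3 to 19 higher and 6 to 15 lower. For KO against WT, the 9 higher and 16 lower of 43 members stood beside 1999 higher and 2438 lower of 15071 genes. Thinning gave 5 and 7 of 42 members, beside 781 and 880 of 7763 genes. The 1 fit over all cell libraries gave 2 and 7 of 43 members, beside 891 and 1005 of 15051 genes. With the batches summed no member passed under either scaling, as given above. Without cells of high UMIs, the log2 fold changes of the members in the summed fit ran from -0.64 to 0.96. Leaving out a library gave 6 to 12 higher and 6 to 18 lower, with 6 lower without KO batch 1 and 10 without WT batch 2. With the batch as a replicate block, 9 members were higher and 14 lower of 43, beside 2165 higher and 2635 lower of 15071 genes. Whether the batch numbers pair the samples could not be told. Under thinning, PSMC6 and PSMG2 turned sign, to 0.0080 and 0.27. For LAST-seq against CEL-seq2, the 11 higher and 3 lower of 41 members stood beside 1276 higher and 1673 lower of 11271 genes. Total scaling gave 5 and 3 of 41 members, beside 740 and 2286 of 11271 genes. Thinning gave 2 and 4 of 28 members, beside 249 and 395 of 2070 genes. The 1 fit over all cell libraries gave 19 and 4 of 44 members, beside 2221 and 2492 of 15615 genes. Leaving out a library left 1 in its group, so only medians are given. The median log2 fold change was then 0.32 to 0.54 over the members and -0.17 to -0.01 over all genes. The causes were not tested.

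The proteasome share became 1.02%, 0.823%, 1.03% and 0.985% in HEK293T LAST-seq, CEL-seq2, WT and KO with nuclear protein-coding UMIs as the denominator. The shares of PSMB9 and PSMB10 in their pairs became 0.0% with cells thinned. Without the lowest and highest subunit, the CV of the alpha subunits, beta subunits, ATPases and lid became 0.613, 0.303, 0.270 and 0.288 in HEK293T and 0.989, 0.431, 0.112 and 0.388 in WT, and the beta subunits of KO then had a higher CV than those of WT (0.464 and 0.467 in the batches). The median overdispersion became 0.0074 in WT, beside 0.0119 for genes in the same ranges, and 0.0095 in KO, beside 0.0113, with cells thinned to 20000 UMIs, 0.0177 in WT without cells of high UMIs and 0.0108 in WT batch 1 alone. Depth limits the immunoproteasome shares and the overdispersion of members with under 10 UMIs per cell.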

Other observations

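Among genes that work with the proteasome but lie outside the naming rule, UBB, which encodes a chain of ubiquitin units, had 291 and 289 UMIs in HEK293T LAST-seq cells, 0 in both WT batches, and 1 and 4 in the KO batches. Against a limit of 3 UMIs over the WT cells, UBB was at least 1296-fold higher in HEK293T, at 198 CPM. In this comparison of lines, 7.45% of all genes were called higher and 11.6% lower with the batches summed, beside which the counts of the lists stand. Of the 5 ubiquitin genes, 1 was higher and 1 lower in HEK293T with the batches summed. Of the 10 partners of the proteasome, 2 were higher and 2 lower, with the largest change in AKIRIN2, which brings proteasomes into the nucleus, at 33.7 and 50.3 CPM against 9.50 and 8.29 CPM (log2 fold change 2.01 ± 0.57, adjusted p = 0.00913). Of the 8 shuttles and segregase genes, 0 were higher and 1 lower of 7 tested. UBQLN2, a shuttle for ubiquitinated proteins, was at 14.0 and 13.9 CPM against 90.5 and 87.0 CPM, and fell by 2.91 ± 0.47 (adjusted p = 3.77e-06). Of the 8 genes of interferon and antigen processing, 2 could be tested and B2M fell by 0.87 ± 0.23 (adjusted p = 0.00517), and of the NRF1 axis (NFE2L1, NGLY1 and DDI2) none of 3 passed, with NGLY1 at 0.82 ± 0.65 (adjusted p = 0.435).

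In KO against WT, none of these genes passed with the batches summed. SEM1, a small lid subunit outside the naming rule, came nearest, at 783 and 798 CPM in WT and 417 and 417 CPM in KO (log2 fold change -0.999 ± 0.29, adjusted p = 0.0784). NLRC5, a regulator of antigen presentation genes, was at 3.53 and 0.813 CPM in WT and at 2.95 and 15.7 CPM in KO, so its log2 fold change of 2.53 (adjusted p = 0.738) rests on KO batch 2. NFE2L1 was at 0.20 ± 0.46. In LAST-seq against CEL-seq2, POMP, the assembly factor that triggers beta subunit maturation, was at 759 and 807 CPM against 179.5 and 220.5 CPM, higher by 2.27 ± 0.31 (adjusted p = 0.00167). IRF1, a transcription factor of the interferon response, fell by 3.08 ± 0.79 (adjusted p = 0.0185). NGLY1 was at -1.11 ± 0.47 (adjusted p = 0.11).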
